A study of Mus musculus with 4 samples.

Results

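Heat shock proteins and their DnaJ cochaperones were described in mouse left ventricle 3 days after an induced myocardial infarction. The genes were taken by symbol, as every row of the deposited files whose name begins with Hspa, Hspb, Hspd, Hspe, Hsph, Hsp90 or Dnaj, which gave 71 of the 17550 genes listed in any library. They fall into 11 classes, among them 6 small Hspb proteins of muscle (Hspb1, Hspb2, Hspb3, Hspb6, Hspb7 and Hspb8), which were set against the other 65 genes. The 4 groups are the infarcted left ventricle of Neil3-/- mice, the same tissue of wild-type mice, and the non-infarcted left ventricle of each of these genotypes. All were C57BL/6 mice at 8 weeks of age, and the non-infarcted pieces also came from infarcted hearts, so no group is an unoperated heart. Each of the 4 groups is 1 library of total RNA, and the labels do not say how many mice it holds. No difference below has a replicate check, and no p-value is given.

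Chaperones keep proteins folded and hold damaged ones until they are refolded or degraded. Small heat shock proteins bind unfolding clients without using ATP. Several of them are made mainly in heart and skeletal muscle, where they guard sarcomere and cytoskeletal proteins. Hsp70 proteins fold clients in cycles of ATP hydrolysis that DnaJ proteins start through their J domain and Hsp110 proteins reset, and Hsp90 acts on late folding steps of kinases and receptors. Separate sets of these proteins serve the cytosol, the endoplasmic reticulum and the mitochondria.

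Depth was 18.2 M (mega) uniquely assigned reads labelled Neil3-/- and 17.3 M wild type in infarcted tissue, against 14.3 M labelled Neil3-/- and 14.9 M wild type in non-infarcted tissue. Levels are RPKM, read numbers divided by transcript length and sequencing depth, where a single read on a 2 kb transcript counts for 0.0275 to 0.0350. Neil3, the targeted DNA glycosylase gene, was higher in both libraries labelled Neil3-/-, at 18.5 RPKM labelled Neil3-/- and 3.95 RPKM wild type in infarcted tissue, against 12.0 RPKM labelled Neil3-/- and 1.83 RPKM wild type in non-infarcted tissue. Which part of the gene was deleted is not labelled, so these reads do not check the genotype, and the libraries are called labelled Neil3-/- throughout. Cardiomyocyte markers were all present, and their summed level was 5445 RPKM labelled Neil3-/- and 8199 RPKM wild type in infarcted tissue, against 17994 RPKM labelled Neil3-/- and 18881 RPKM wild type in non-infarcted tissue. The atrial markers Myl7, Myl4 and Sln were more than 2-fold lower in the non-infarcted library labelled Neil3-/- than in wild type, with Myl7 at 10.6 RPKM labelled Neil3-/- and 49.0 RPKM wild type, and Sln was listed in neither infarcted library. Skeletal muscle markers, which include Acta1 and Ckm of heart muscle, summed to 839.6 RPKM labelled Neil3-/- and 739.9 RPKM wild type in infarcted tissue, against 2171 RPKM labelled Neil3-/- and 1460.1 RPKM wild type in non-infarcted tissue.

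Chaperone transcripts were abundant in every library. Of the 71 genes, 70 had reads in all 4 libraries, 38 reached 20 RPKM in at least 1 library, 11 reached 100 RPKM and 3 (Hspb7, Hspb6 and Hspa8) reached 1000 RPKM. Together they took 1.55% of reads labelled Neil3-/- and 1.75% wild type in infarcted tissue, against 1.74% labelled Neil3-/- and 1.73% wild type in non-infarcted tissue. The order of the most abundant genes differed in infarcted tissue. In non-infarcted tissue of both genotypes it ran Hspb7, Hspb6, Hspa8, Hsp90ab1 and Hspb1, while in infarcted tissue Hspa8 stood first in the library labelled Neil3-/- and second behind Hspb7 in wild type. The 6 small Hspb genes made up 35.9% of the summed RPKM of all 71 genes labelled Neil3-/- and 44.7% wild type in infarcted tissue, against 53.4% labelled Neil3-/- and 53.5% wild type in non-infarcted tissue. The endoplasmic reticulum class took 13.5% labelled Neil3-/- and 9.88% wild type in infarcted tissue, against 6.48% labelled Neil3-/- and 6.49% wild type in non-infarcted tissue. The non-infarcted libraries thus had nearly the same makeup, and both infarcted libraries differed from them in the same direction.

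**Figure D1:**
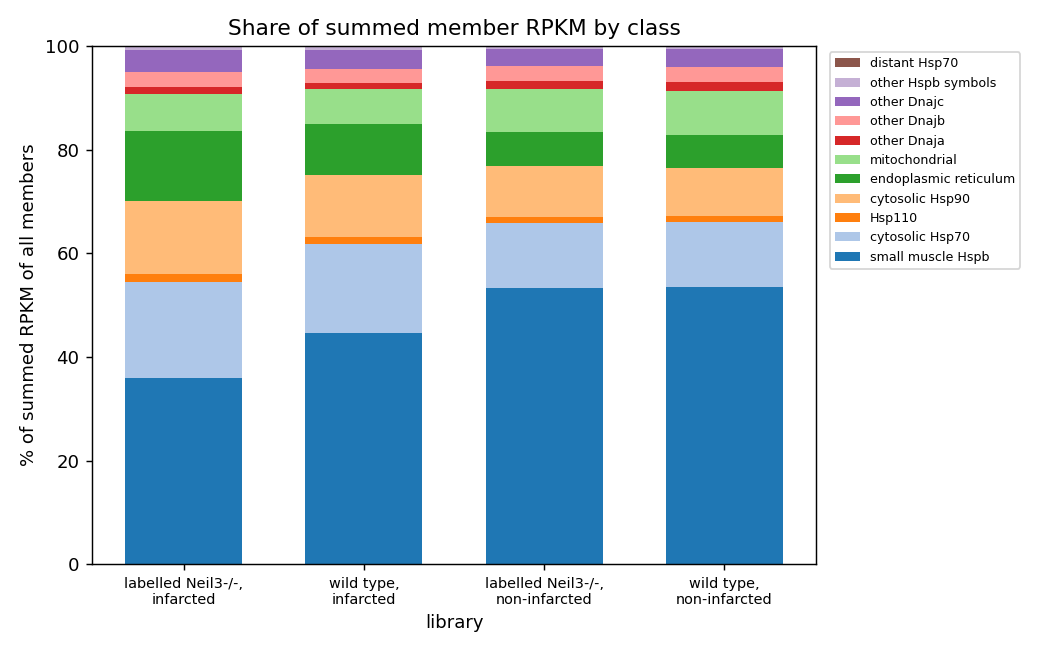
Share of the summed RPKM of all 71 genes held by each class (y axis, percent, from 0 to 100) in the 4 libraries (x axis), with 1 stacked bar for each library. The small muscle Hspb part is smallest in the infarcted library labelled Neil3-/- (35.9%) and close to equal in both non-infarcted libraries (53.4% and 53.5%).

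Most members, like most of all compared genes, lay within 2-fold between infarcted and non-infarcted tissue. Ratios were taken on the log2(RPKM + 1) scale for the 65 members that reached 1 RPKM in either library of the pair. At least 2-fold higher in infarcted tissue was 1 gene in the libraries labelled Neil3-/- (Hsp90b1) and 0 in wild type, where 8.2% and 6.21% of all compared genes were. At least 2-fold lower were 4 genes in the libraries labelled Neil3-/- (Hspb6, Hspb3, Dnaja3 and Dnajc28) and 2 in wild type (Hspb3 and Dnajc28). Of all compared genes, 6.07% and 3.6% were. Out of 65 members, these lower counts lie near the all-gene shares and do not set the members apart. In the libraries labelled Neil3-/-, Hspb3 (-1.01), Dnaja3 (-1.0) and Hsp90b1 (1.01) lay just inside the threshold and Dnajc9 (0.99) just outside it. With median-ratio scaling the members past 2-fold were 0 higher and 10 lower in the libraries labelled Neil3-/- and 0 higher and 4 lower in wild type, while over all genes the split was 517 higher and 1100 lower labelled Neil3-/- and 448 and 781 in wild type, against 1030 and 762 labelled Neil3-/- and 777 and 450 in wild type as deposited. Ratios of single genes below are plain RPKM ratios, which for genes of low level exceed those on the log2(RPKM + 1) scale. Their exact 95% intervals stand in parentheses and cover counting error only. Over all compared genes the median was 0.24 labelled Neil3-/- and 0.21 in wild type, and other scalings moved it by up to -0.23 and -0.20, so ratios of the members are read against it.

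**Figure D2:**
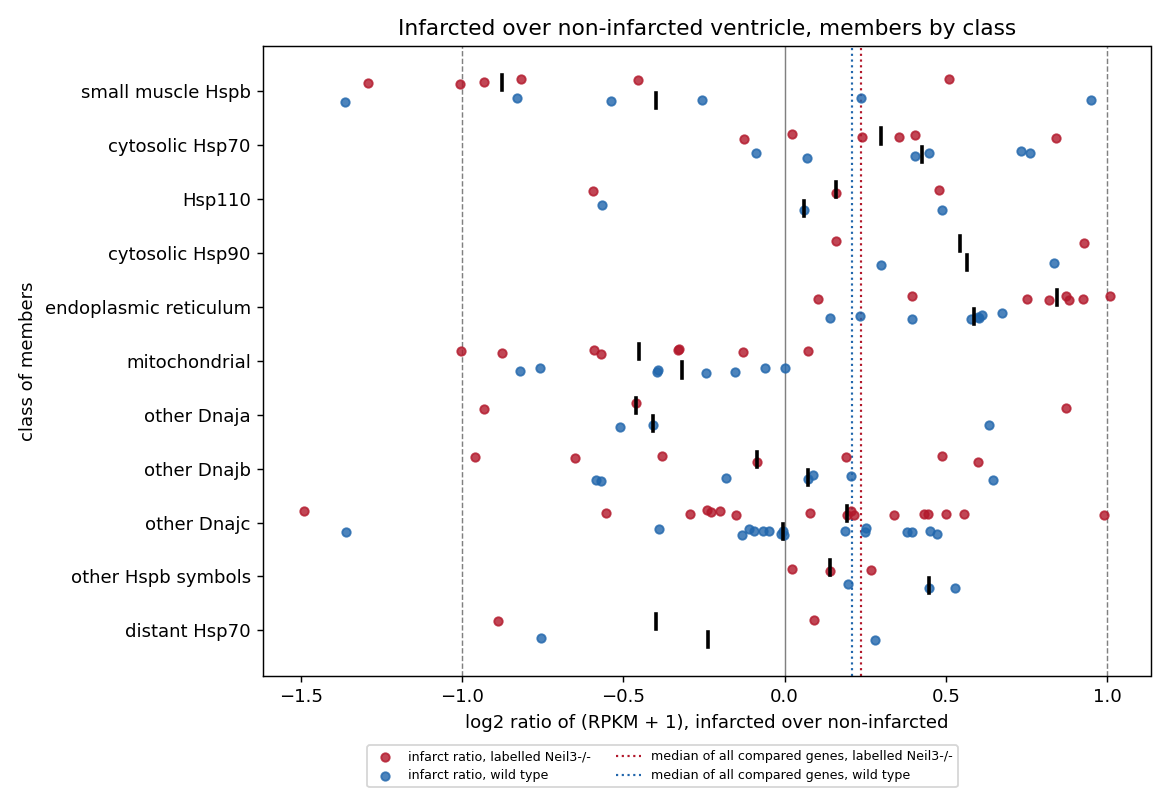
Log2 ratio of (RPKM + 1), infarcted over non-infarcted tissue (x axis), for every compared member, by class (y axis). Each point is 1 gene, red for the libraries labelled Neil3-/- and blue for wild type, black bars are class medians, dotted lines the medians of all compared genes (0.24 and 0.21) and dashed lines 2-fold. Small muscle Hspb and mitochondrial genes lie mostly left of the dotted lines, and 7 of 8 endoplasmic reticulum genes lie right of them in both genotypes.

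The small muscle Hspb genes were split, with Hspb1 higher and Hspb6, Hspb7, Hspb8 and Hspb3 lower in infarcted tissue of both genotypes. Their median log2 ratio was -0.88 in the libraries labelled Neil3-/- and -0.40 in wild type, against 0.14 and 0.09 for the other members. Hspb7, the cardiovascular small heat shock protein and the most abundant member in 3 of the 4 libraries, was at 1105 RPKM labelled Neil3-/- and 1713 RPKM wild type in infarcted tissue, against 1949 RPKM labelled Neil3-/- and 2045 RPKM wild type in non-infarcted tissue. That is 1.76-fold lower (1.75 to 1.78) labelled Neil3-/- and 1.19-fold lower (1.18 to 1.21) in wild type. The infarcted library labelled Neil3-/- stands clearly below the other 3 for this gene. Hspb6, also called Hsp20, which is phosphorylated in cardiomyocytes under adrenergic signalling, was at 609 RPKM labelled Neil3-/- and 736 RPKM wild type in infarcted tissue, against 1492 RPKM labelled Neil3-/- and 1308 RPKM wild type in non-infarcted tissue. It was 2.45-fold lower (2.40 to 2.50) labelled Neil3-/- and 1.78-fold lower (1.74 to 1.81) in wild type. Labelled Neil3-/- this was the largest difference among the 11 members that reached 100 RPKM, while in wild type those of Hspb1 and Hsp90aa1 were larger. Hspb8, which works with the cochaperone Bag3 in clearing damaged sarcomere proteins, was at 158 RPKM labelled Neil3-/- and 224 RPKM wild type in infarcted tissue, against 303 RPKM labelled Neil3-/- and 327 RPKM wild type in non-infarcted tissue. Its ratio was 1.92-fold lower (1.85 to 1.98) labelled Neil3-/- and 1.46-fold lower (1.41 to 1.50) in wild type. For Hspb6 and Hspb8 both infarcted libraries lie below both non-infarcted ones. Hspb3, a scarce muscle form, had 3.03 RPKM labelled Neil3-/- and 2.60 RPKM wild type in infarcted tissue, against 7.08 RPKM labelled Neil3-/- and 8.25 RPKM wild type in non-infarcted tissue, from 35 to 96 reads. It was 2.34-fold lower (1.59 to 3.48) labelled Neil3-/- and 3.18-fold lower (2.14 to 4.82) in wild type, with wide intervals because of the few reads.

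Hspb1, known as Hsp27, which protects actin filaments and is made in many cell types, went against the other 4. It was at 505 RPKM labelled Neil3-/- and 687 RPKM wild type in infarcted tissue, against 354 RPKM labelled Neil3-/- and 355 RPKM wild type in non-infarcted tissue. This is 1.43-fold higher (1.38 to 1.48) labelled Neil3-/- and 1.94-fold higher (1.87 to 2.0) in wild type, and its share of the summed small Hspb RPKM was 20.8% labelled Neil3-/- and 19.9% wild type in infarcted tissue, against 8.50% labelled Neil3-/- and 8.63% wild type in non-infarcted tissue. Hspb2, which forms complexes with Hspb3 in muscle, had 44.9 RPKM labelled Neil3-/- and 84.4 RPKM wild type in infarcted tissue, against 61.8 RPKM labelled Neil3-/- and 71.5 RPKM wild type in non-infarcted tissue. It was 1.38-fold lower (1.25 to 1.52) labelled Neil3-/- and 1.18-fold higher (1.09 to 1.28) in wild type, so as deposited the infarcted libraries lie on opposite sides of the non-infarcted ones. Under median-ratio scaling its wild-type log2 ratio was 0.0066. Its neighbour in the RefSeq table is Cryab, the abundant small heat shock protein alphaB-crystallin, whose symbol falls outside the naming rule. Cryab was at 1874 RPKM labelled Neil3-/- and 2764 RPKM wild type in infarcted tissue, against 1891 RPKM labelled Neil3-/- and 1856 RPKM wild type in non-infarcted tissue, and was 1.01-fold lower (0.994 to 1.02) labelled Neil3-/- and 1.49-fold higher (1.47 to 1.51) in wild type. Both neighbours thus had their highest level in the wild-type infarcted library.

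All 10 cardiomyocyte markers were lower in infarcted tissue of each genotype, with a median log2 ratio of -1.70 in the libraries labelled Neil3-/- and -1.38 in wild type. None of them was at 0 in any library. The small Hspb median lay 0.83 and 0.98 log2 units above that of the markers, and each of the 6 genes lay above it, by 0.41 (Hspb6) to 2.21 (Hspb1) labelled Neil3-/- and by 0.02 (Hspb3) to 2.33 (Hspb1) in wild type. In bulk tissue, fewer cardiomyocytes and less RNA per cardiomyocyte cannot be told apart. The markers' part in the Hspb ratios was not tested.

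**Figure D3:**
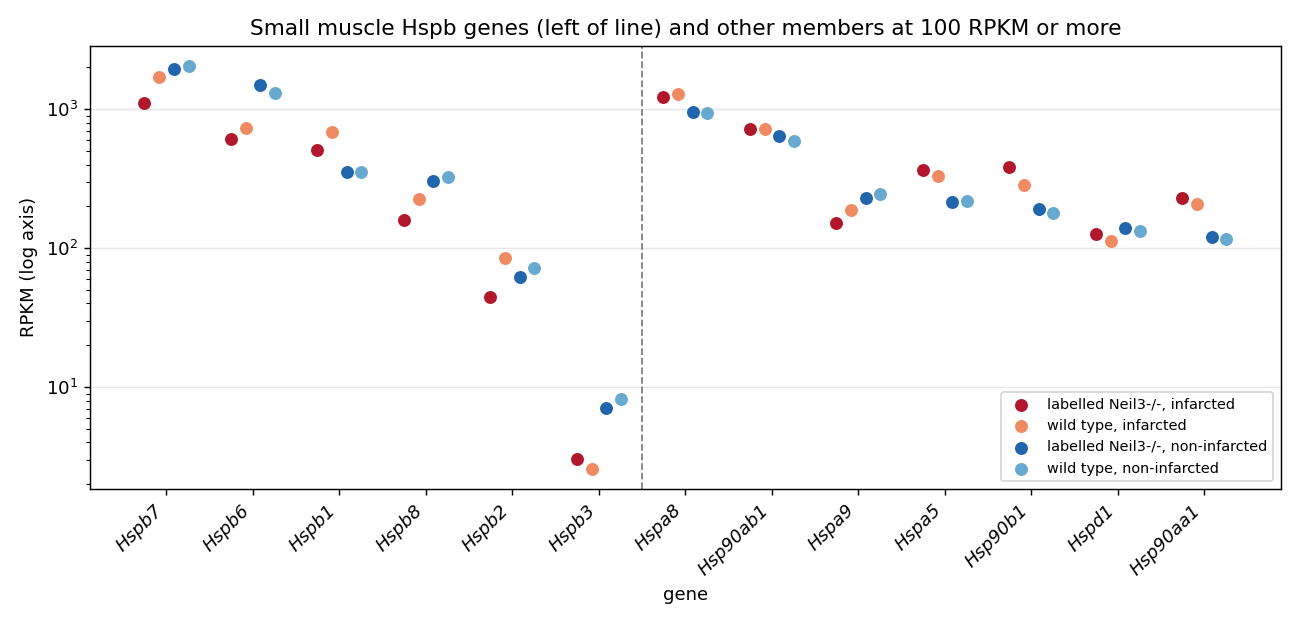
RPKM (y axis, log axis) of the 6 small muscle Hspb genes, left of the dashed line, and of the 7 other members that reached 100 RPKM, right of it, with 1 point for each of the 4 libraries. Hspb6, Hspb8 and Hspb3 are lower and Hspb1 higher in both infarcted libraries, while Hspa5, Hsp90b1 and Hsp90aa1 are higher in both.

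Promoter windows of 250 bases before to 50 bases after the start site were found for 58 of the 71 genes in RefSeq sequence of assembly GRCm38.p6, a later build than the mm9 of the files. Both strands were searched for the heat shock element, the site bound by heat shock factors, in forms of 3 units (GAA, 2 bases of any kind, TTC, 2 of any kind, then GAA) and of 2 units (GAANNTTC or TTCNNGAA, which both lie inside the longer form). For each motif, all genes means the 27025 genes with a promoter window. The 2-unit form GAANNTTC was present for 13 of 58 members, or 22.4%, and for 9.04% of all genes. The members are not independent here. Hspd1 and Hspe1 share a site in overlapping windows, and the near-identical Hspa1a and Hspa1b hold the same match, yet each gene is counted. TTCNNGAA was present for 6 members, or 10.3%, and for 9.6% of all genes. Among the small muscle Hspb genes, GAANNTTC was found in windows of Hspb1, Hspb3, Hspb6 and Hspb8. The windows of Hspb1, which was higher in infarcted tissue, and of Hspb6, which was lower, are printed 5′ to 3′ with the fixed bases of each match in capitals.
Hspb1 (chr5:135887669-135887968, plus strand, GRCm38.p6): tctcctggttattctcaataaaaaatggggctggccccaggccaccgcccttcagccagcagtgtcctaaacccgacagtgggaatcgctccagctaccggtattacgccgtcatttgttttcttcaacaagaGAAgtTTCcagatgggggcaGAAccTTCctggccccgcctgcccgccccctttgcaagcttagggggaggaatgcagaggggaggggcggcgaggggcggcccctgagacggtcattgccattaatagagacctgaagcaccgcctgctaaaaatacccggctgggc
Hspb6 (chr7:30553051-30553350, plus strand, GRCm38.p6): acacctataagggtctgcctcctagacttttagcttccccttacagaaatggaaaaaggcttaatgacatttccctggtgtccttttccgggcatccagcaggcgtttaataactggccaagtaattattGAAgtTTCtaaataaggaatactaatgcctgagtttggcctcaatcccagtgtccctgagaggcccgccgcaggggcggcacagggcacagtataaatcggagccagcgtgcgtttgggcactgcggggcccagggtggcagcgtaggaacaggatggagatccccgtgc
Counted from the start site, the matches begin at -117 and -97 for Hspb1 and at -120 for Hspb6, which also has a second window without a match. Genes with opposite ratios thus share the same letters, and a match is a description of the sequence and not a bound site.

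Chaperones of the endoplasmic reticulum formed the class with the highest median infarct ratio in both genotypes. As deposited, 8 of 8 lay above 0 in each genotype, where 66.3% (labelled Neil3-/-) and 67.2% (wild type) of all compared genes did, and only Dnajb9 turned below 0, in both genotypes, under median-ratio and TMM scaling. This count depends on the class, which was drawn up with earlier results known. Dnajb12 of the endoplasmic reticulum membrane was classed elsewhere and lay at -0.09 labelled Neil3-/- and 0.09 in wild type. Dnajb14, Dnajc16, Dnajc18 and Dnajc25 of this compartment were also classed elsewhere, by symbol. Labelled Neil3-/- they lay at 0.49, -0.24, -0.23 and 0.44, and in wild type at 0.21, -0.11, -0.0052 and -0.05. The count of 8 of 8 thus holds for the class as drawn up and not for the whole compartment. The class median was 0.85 in the libraries labelled Neil3-/- and 0.59 in wild type, and 0.60 and 0.37 after median-ratio scaling. Hspa5, the Hsp70 protein of this compartment known as BiP, was at 365 RPKM labelled Neil3-/- and 332 RPKM wild type in infarcted tissue, against 217 RPKM labelled Neil3-/- and 217 RPKM wild type in non-infarcted tissue. It was 1.69-fold higher (1.64 to 1.73) labelled Neil3-/- and 1.53-fold higher (1.49 to 1.57) in wild type. Hsp90b1, the Hsp90 protein of the same compartment known as Grp94, had 385 RPKM labelled Neil3-/- and 287 RPKM wild type in infarcted tissue, against 191 RPKM labelled Neil3-/- and 179.8 RPKM wild type in non-infarcted tissue. Its ratio was 2.02-fold higher (1.97 to 2.07) labelled Neil3-/- and 1.60-fold higher (1.55 to 1.64) in wild type. For both genes the 2 infarcted libraries stand above the 2 non-infarcted ones, and the library labelled Neil3-/- is the higher of the infarcted pair.

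Most J proteins that serve BiP had higher levels in infarcted tissue too. Dnajb11, known as ERdj3, was at 43.8 RPKM labelled Neil3-/- and 38.3 RPKM wild type in infarcted tissue, against 23.5 RPKM labelled Neil3-/- and 24.9 RPKM wild type in non-infarcted tissue, which is 1.87-fold higher (1.72 to 2.02) labelled Neil3-/- and 1.54-fold higher (1.42 to 1.67) in wild type. Dnajc3, known as p58IPK, had 31.5 RPKM labelled Neil3-/- and 26.1 RPKM wild type in infarcted tissue, against 16.1 RPKM labelled Neil3-/- and 17.1 RPKM wild type in non-infarcted tissue, and was 1.95-fold higher (1.83 to 2.09) labelled Neil3-/- and 1.52-fold higher (1.42 to 1.63) in wild type. Dnajc10, the disulfide reductase ERdj5, had 34.6 RPKM labelled Neil3-/- and 27.7 RPKM wild type in infarcted tissue, against 19.2 RPKM labelled Neil3-/- and 17.9 RPKM wild type in non-infarcted tissue, and was 1.80-fold higher (1.68 to 1.94) labelled Neil3-/- and 1.55-fold higher (1.44 to 1.67) in wild type. All 3 show the same order of libraries as Hsp90b1 within infarcted tissue. Dnajb9, known as ERdj4 and a classic target of the unfolded protein response, stood apart from them with 25.5 RPKM labelled Neil3-/- and 26.5 RPKM wild type in infarcted tissue, against 23.7 RPKM labelled Neil3-/- and 23.9 RPKM wild type in non-infarcted tissue, and both of its intervals held 1. The less abundant Hspa13 was 1.96-fold higher (1.75 to 2.20) labelled Neil3-/- and 1.35-fold higher (1.21 to 1.52) in wild type, and Dnajc1 1.35-fold higher (1.23 to 1.48) labelled Neil3-/- and 1.19-fold higher (1.09 to 1.30) in wild type. Reads covered 50.8% to 55.0% of the Dnajb11 gene model and 42.0% to 50.1% of the Dnaja1 model, against a median of 95.3% to 96.3% over members, so RPKM per listed length may understate the level of these 2 genes.

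The endoplasmic reticulum stress response element, CCAAT and CCACG with 9 bases of any kind between them, was searched in the same windows on both strands. It was present for 3 of 58 members, Hspa5, Hsp90b1 and Dnajc3, or 5.17%, against 0.137% of all genes. All 3 belong to the endoplasmic reticulum class, and their windows are printed with the fixed bases of each match in capitals.
Hspa5 (chr2:34771840-34772139, plus strand, GRCm38.p6): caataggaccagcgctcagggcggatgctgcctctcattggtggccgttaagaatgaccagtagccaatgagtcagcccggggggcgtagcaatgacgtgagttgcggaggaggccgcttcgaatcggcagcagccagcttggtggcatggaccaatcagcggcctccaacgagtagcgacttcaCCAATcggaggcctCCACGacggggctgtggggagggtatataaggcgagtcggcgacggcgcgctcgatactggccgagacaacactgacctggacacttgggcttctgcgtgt
Hsp90b1 (chr10:86705395-86705694, minus strand, GRCm38.p6): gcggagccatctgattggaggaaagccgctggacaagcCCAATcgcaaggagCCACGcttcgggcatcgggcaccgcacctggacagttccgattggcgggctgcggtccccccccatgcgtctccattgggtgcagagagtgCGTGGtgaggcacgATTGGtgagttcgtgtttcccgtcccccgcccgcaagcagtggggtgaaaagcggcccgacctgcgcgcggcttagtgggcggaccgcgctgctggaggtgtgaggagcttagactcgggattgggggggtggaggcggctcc
Dnajc3 (chr14:118937682-118937981, plus strand, GRCm38.p6): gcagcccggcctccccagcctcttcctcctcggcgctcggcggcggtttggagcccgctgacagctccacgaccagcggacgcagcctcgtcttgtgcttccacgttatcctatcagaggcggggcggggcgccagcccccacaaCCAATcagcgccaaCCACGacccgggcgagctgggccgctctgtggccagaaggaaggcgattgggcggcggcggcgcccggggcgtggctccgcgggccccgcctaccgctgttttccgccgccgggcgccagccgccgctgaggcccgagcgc
The match begins at -65 for Hspa5 and at -105 for Dnajc3, counted from the start site. Hsp90b1 has 2 matches on opposite strands, which begin at -212 and -107. No match says only that these letters are not in the window, as for Dnajb11 and Dnajc10, which were also higher in infarcted tissue. A match is a description of the sequence and not a bound site, and its part in the ratios was not tested.

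Other genes of the unfolded protein response were higher too. Of 20 listed genes, 17 labelled Neil3-/- and 18 wild type lay above 0 in infarcted tissue, against 66.3% and 67.2% of all compared genes. At least 2-fold higher were 9 and 5 of them, against 8.2% and 6.21% of all compared genes, and the medians were 0.77 and 0.75. Under median-ratio scaling 17 and 17 lay above 0, 5 and 1 were at least 2-fold higher, and 1 and 1 at least 2-fold lower. Of all compared genes under that scaling, 517 of 12549 labelled Neil3-/- and 448 of 12510 in wild type were at least 2-fold higher. At least 2-fold lower were 1100 and 781 of them. Sdf2l1, a partner of BiP and Dnajb11, was 2.82-fold higher (2.33 to 3.44) labelled Neil3-/- and 2.64-fold higher (2.17 to 3.22) in wild type. Edem1, which directs misfolded glycoproteins to degradation, was 2.68-fold higher (2.47 to 2.90) labelled Neil3-/- and 2.36-fold higher (2.17 to 2.58) in wild type. Creld2, a secretory pathway protein induced by this response, was 2.71-fold higher (2.34 to 3.14) labelled Neil3-/- and 2.12-fold higher (1.85 to 2.44) in wild type, and the disulfide isomerase Pdia4 2.47-fold higher (2.32 to 2.62) labelled Neil3-/- and 2.21-fold higher (2.07 to 2.36) in wild type. The genes below 0, named here after their values were seen, were Herpud1 and Atf6 in both genotypes and Ddit3 labelled Neil3-/- alone. Herpud1, of the degradation machinery in this membrane, was 1.81-fold lower (1.70 to 1.94) labelled Neil3-/- and 1.80-fold lower (1.68 to 1.92) in wild type, and Atf6, a sensor of the response, 1.28-fold lower (1.22 to 1.35) labelled Neil3-/- and 1.43-fold lower (1.37 to 1.51) in wild type. Summed markers of fibroblasts and macrophages were higher in infarcted tissue as well. Fibroblast markers summed to 4196 RPKM labelled Neil3-/- and 2716 RPKM wild type in infarcted tissue, against 2533 RPKM labelled Neil3-/- and 1950 RPKM wild type in non-infarcted tissue, with 6 and 4 of 7 higher in infarcted tissue. Macrophage markers summed to 1592 RPKM labelled Neil3-/- and 1148 RPKM wild type in infarcted tissue, against 647 RPKM labelled Neil3-/- and 387 RPKM wild type in non-infarcted tissue, with 7 of 7 higher in each genotype. No marker of either list was at 0 in any library, and their part in the chaperone ratios was not tested.

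The cytosolic Hsp90 and Hsp70 genes lay mostly above 0 in infarcted tissue. Of all compared genes, 66.3% (labelled Neil3-/-) and 67.2% (wild type) did so. Class medians were 0.54 and 0.30 labelled Neil3-/- and 0.57 and 0.43 in wild type, against all-gene medians of 0.24 and 0.21. After median-ratio scaling the class medians were 0.29 and 0.10 labelled Neil3-/- and 0.33 and 0.20 in wild type. Hsp90aa1, the stress-inducible Hsp90, was at 229 RPKM labelled Neil3-/- and 208 RPKM wild type in infarcted tissue, against 120.0 RPKM labelled Neil3-/- and 116 RPKM wild type in non-infarcted tissue. It was 1.91-fold higher (1.85 to 1.98) labelled Neil3-/- and 1.79-fold higher (1.73 to 1.85) in wild type. Hsp90ab1, the constitutive Hsp90, had 720.5 RPKM labelled Neil3-/- and 723 RPKM wild type in infarcted tissue, against 645 RPKM labelled Neil3-/- and 587 RPKM wild type in non-infarcted tissue. Its ratio was 1.12-fold higher (1.10 to 1.14) labelled Neil3-/- and 1.23-fold higher (1.21 to 1.25) in wild type, and the log2 ratio labelled Neil3-/- turned below 0 under median-ratio and TMM scaling. The inducible form thus had the larger ratio in both genotypes. Hspa8, the constitutive Hsp70 of the cytosol, was at 1224 RPKM labelled Neil3-/- and 1291 RPKM wild type in infarcted tissue, against 956 RPKM labelled Neil3-/- and 946 RPKM wild type in non-infarcted tissue, which is 1.28-fold higher (1.26 to 1.30) labelled Neil3-/- and 1.36-fold higher (1.34 to 1.38) in wild type. The stress-inducible Hspa1a and Hspa1b were scarce, at no more than 2.93 RPKM in any library. Hspa1b was 2.59-fold higher (1.81 to 3.79) labelled Neil3-/- and 2.15-fold higher (1.57 to 2.98) in wild type, and Hspa1a 1.37-fold higher (0.910 to 2.08) labelled Neil3-/- and 2.34-fold higher (1.65 to 3.37) in wild type. These genes are near-identical neighbours, so uniquely assigned reads may be split or lost between them, and only 29.8% to 42.5% of their models was covered. Their separate values are uncertain.

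Of the Hsp110 nucleotide exchange factors, Hsph1, known as Hsp105, had 23.0 RPKM labelled Neil3-/- and 19.0 RPKM wild type in infarcted tissue, against 16.2 RPKM labelled Neil3-/- and 13.3 RPKM wild type in non-infarcted tissue, and was 1.42-fold higher (1.30 to 1.55) labelled Neil3-/- and 1.43-fold higher (1.30 to 1.58) in wild type. Hspa4, known as Apg-2, was at 67.7 RPKM labelled Neil3-/- and 64.4 RPKM wild type in infarcted tissue, against 60.4 RPKM labelled Neil3-/- and 61.7 RPKM wild type in non-infarcted tissue, a difference whose sign turned in both genotypes under other scalings. Hspa4l was 1.56-fold lower (1.40 to 1.74) labelled Neil3-/- and 1.53-fold lower (1.37 to 1.71) in wild type. The Hsp110 genes therefore had no common direction. Hspa14, Hspa2, Hspa1l, Hspa12a and Hspa12b stayed below 20 RPKM, and of these Hspa12a, a distant Hsp70 relative, was 2.19-fold lower (1.87 to 2.55) labelled Neil3-/- and 1.97-fold lower (1.68 to 2.32) in wild type. Hspbp1, which releases nucleotide from Hsp70 despite its Hspb-like symbol, was at 19.5 RPKM labelled Neil3-/- and 24.8 RPKM wild type in infarcted tissue, against 19.2 RPKM labelled Neil3-/- and 21.6 RPKM wild type in non-infarcted tissue. Its small ratios turned sign with scaling in both genotypes.

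Mitochondrial chaperones were mostly lower in infarcted tissue. In each genotype 7 of 8 lay below 0, where 33.7% (labelled Neil3-/-) and 32.8% (wild type) of all compared genes did, and 8 of 8 did under each other scaling. The class median was -0.45 in the libraries labelled Neil3-/- and -0.32 in wild type. Hspa9, the Hsp70 protein of the matrix known as mortalin, had 152 RPKM labelled Neil3-/- and 188 RPKM wild type in infarcted tissue, against 229 RPKM labelled Neil3-/- and 247 RPKM wild type in non-infarcted tissue. It was 1.51-fold lower (1.47 to 1.55) labelled Neil3-/- and 1.32-fold lower (1.28 to 1.35) in wild type. Dnaja3, its J protein Tid1, had 26.9 RPKM labelled Neil3-/- and 30.4 RPKM wild type in infarcted tissue, against 54.9 RPKM labelled Neil3-/- and 54.5 RPKM wild type in non-infarcted tissue, and was 2.04-fold lower (1.90 to 2.19) labelled Neil3-/- and 1.79-fold lower (1.68 to 1.92) in wild type. Dnajc15, of the import motor at the inner membrane, was at 40.7 RPKM labelled Neil3-/- and 42.7 RPKM wild type in infarcted tissue, against 75.5 RPKM labelled Neil3-/- and 72.9 RPKM wild type in non-infarcted tissue, which is 1.86-fold lower (1.65 to 2.08) labelled Neil3-/- and 1.71-fold lower (1.52 to 1.92) in wild type. These 3 genes are lower in both infarcted libraries than in both non-infarcted ones.

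Of the other mitochondrial members, Dnajc30 was at 19.2 RPKM labelled Neil3-/- and 20.7 RPKM wild type in infarcted tissue, against 29.0 RPKM labelled Neil3-/- and 27.5 RPKM wild type in non-infarcted tissue, and was 1.51-fold lower (1.32 to 1.73) labelled Neil3-/- and 1.33-fold lower (1.16 to 1.52) in wild type. Dnajc19, a second import motor J protein, had 23.2 RPKM labelled Neil3-/- and 23.0 RPKM wild type in infarcted tissue, against 29.4 RPKM labelled Neil3-/- and 25.7 RPKM wild type in non-infarcted tissue. Dnajc11, linked to cristae organisation, was at 22.6 RPKM labelled Neil3-/- and 26.1 RPKM wild type in infarcted tissue, against 28.5 RPKM labelled Neil3-/- and 27.2 RPKM wild type in non-infarcted tissue. All 3 had their lower levels in infarcted tissue, although the wild-type intervals of Dnajc19 and Dnajc11 held 1. Hspd1 and Hspe1 code for the chaperonin Hsp60 and its cochaperonin Hsp10, which form a folding cage together. Hspd1 had 127 RPKM labelled Neil3-/- and 112 RPKM wild type in infarcted tissue, against 139 RPKM labelled Neil3-/- and 133 RPKM wild type in non-infarcted tissue, and was 1.09-fold lower (1.05 to 1.14) labelled Neil3-/- and 1.18-fold lower (1.14 to 1.23) in wild type. Hspe1 had 65.7 RPKM labelled Neil3-/- and 64.8 RPKM wild type in infarcted tissue, against 62.4 RPKM labelled Neil3-/- and 64.7 RPKM wild type in non-infarcted tissue, and both of its intervals held 1. RefSeq lists 5 copies of Hspd1 and 7 of Hspe1 among pseudogenes and related sequences, and 1 each of Hspa9, Dnaja1, Dnajb6 and Dnajc19. Reads may be split between copies, and the values of these genes are uncertain.

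Hspd1 and Hspe1 are neighbours, and their promoter windows overlap on opposite strands. They are 2 of the 4 members (with Hsph1 and Dnajb6) whose windows hold the 3-unit heat shock element, which 6.90% of members and 0.662% of all genes had. The window is printed because it holds the longest run of heat shock units among the members, shared by both genes, beside RPKM values that were nearly level for Hspe1.
Hspe1 (chr1:55087898-55088197, plus strand, GRCm38.p6): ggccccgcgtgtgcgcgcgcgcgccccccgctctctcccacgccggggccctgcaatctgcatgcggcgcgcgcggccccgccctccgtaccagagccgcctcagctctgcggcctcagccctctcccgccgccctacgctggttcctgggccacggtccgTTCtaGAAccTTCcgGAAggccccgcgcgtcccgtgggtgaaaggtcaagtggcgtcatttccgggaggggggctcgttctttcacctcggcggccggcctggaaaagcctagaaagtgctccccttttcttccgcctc
The capitals mark the fixed bases of 2 overlapping matches that begin at -89 and -84. Of 9 other mitochondrial folding and import genes found, 8 lay below 0 in each genotype, where 33.7% (labelled Neil3-/-) and 32.8% (wild type) of all compared genes did. Among them the Hspa9 exchange factor Grpel1 was 1.53-fold lower (1.41 to 1.66) labelled Neil3-/- and 1.29-fold lower (1.19 to 1.40) in wild type, the protease subunit Clpx 1.88-fold lower (1.72 to 2.07) labelled Neil3-/- and 1.77-fold lower (1.62 to 1.94) in wild type, and the import protein Timm44 1.68-fold lower (1.54 to 1.82) labelled Neil3-/- and 1.49-fold lower (1.38 to 1.61) in wild type. The protease Htra2 was the exception and was 1.47-fold higher (1.27 to 1.72) labelled Neil3-/- and 1.33-fold higher (1.14 to 1.56) in wild type.

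The cytosolic DnaJ proteins showed opposite ratios within 1 subfamily. Dnaja1, a J protein that feeds clients to Hspa8, had 24.6 RPKM labelled Neil3-/- and 20.4 RPKM wild type in infarcted tissue, against 13.0 RPKM labelled Neil3-/- and 12.8 RPKM wild type in non-infarcted tissue. It was 1.90-fold higher (1.76 to 2.04) labelled Neil3-/- and 1.60-fold higher (1.48 to 1.72) in wild type. Dnaja2 had 56.8 RPKM labelled Neil3-/- and 56.7 RPKM wild type in infarcted tissue, against 78.6 RPKM labelled Neil3-/- and 75.6 RPKM wild type in non-infarcted tissue, and was 1.38-fold lower (1.32 to 1.46) labelled Neil3-/- and 1.33-fold lower (1.27 to 1.40) in wild type. Dnaja4 had 19.2 RPKM labelled Neil3-/- and 24.0 RPKM wild type in infarcted tissue, against 37.4 RPKM labelled Neil3-/- and 34.5 RPKM wild type in non-infarcted tissue, and was 1.95-fold lower (1.81 to 2.11) labelled Neil3-/- and 1.44-fold lower (1.34 to 1.55) in wild type. Dnaja1 is thus higher, and both relatives lower, in infarcted tissue of each genotype.

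Among Dnajb genes, Dnajb1, known as Hsp40 and stress-inducible, was 1.56-fold higher (1.38 to 1.77) labelled Neil3-/- and 1.62-fold higher (1.43 to 1.83) in wild type. Dnajb4 had 47.3 RPKM labelled Neil3-/- and 48.4 RPKM wild type in infarcted tissue, against 61.9 RPKM labelled Neil3-/- and 73.0 RPKM wild type in non-infarcted tissue, and was 1.31-fold lower (1.23 to 1.39) labelled Neil3-/- and 1.51-fold lower (1.43 to 1.59) in wild type. Dnajb5 had 20.4 RPKM labelled Neil3-/- and 27.5 RPKM wild type in infarcted tissue, against 40.7 RPKM labelled Neil3-/- and 41.2 RPKM wild type in non-infarcted tissue, and was 1.99-fold lower (1.83 to 2.17) labelled Neil3-/- and 1.50-fold lower (1.39 to 1.62) in wild type. Both have their lower levels in infarcted tissue. Dnajb2, a J protein with ubiquitin-binding motifs, had 17.1 RPKM labelled Neil3-/- and 21.0 RPKM wild type in infarcted tissue, against 27.4 RPKM labelled Neil3-/- and 23.9 RPKM wild type in non-infarcted tissue, and was 1.60-fold lower (1.47 to 1.75) labelled Neil3-/- and 1.14-fold lower (1.05 to 1.24) in wild type. Dnajb6, which holds back protein aggregation and acts at the Z-disc of muscle, was at 48.7 RPKM labelled Neil3-/- and 46.1 RPKM wild type in infarcted tissue, against 42.5 RPKM labelled Neil3-/- and 43.8 RPKM wild type in non-infarcted tissue. Dnajb12, a J protein of the endoplasmic reticulum membrane that faces the cytosol, was at 23.8 RPKM labelled Neil3-/- and 26.1 RPKM wild type in infarcted tissue, against 25.3 RPKM labelled Neil3-/- and 24.5 RPKM wild type in non-infarcted tissue. The small ratios of Dnajb6 and Dnajb12 turned sign with scaling, Dnajb12 in wild type only.

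The Dnajc group holds proteins with varied tasks. Dnajc28 was 3.72-fold lower (3.04 to 4.58) labelled Neil3-/- and 3.35-fold lower (2.72 to 4.15) in wild type, the largest RPKM ratio of any compared member in either genotype, at 1.99 RPKM labelled Neil3-/- and 2.0 RPKM wild type in infarcted tissue, against 7.40 RPKM labelled Neil3-/- and 6.70 RPKM wild type in non-infarcted tissue. Dnajc8, associated with the spliceosome, had 73.2 RPKM labelled Neil3-/- and 69.8 RPKM wild type in infarcted tissue, against 54.0 RPKM labelled Neil3-/- and 52.9 RPKM wild type in non-infarcted tissue, and was 1.36-fold higher (1.26 to 1.46) labelled Neil3-/- and 1.32-fold higher (1.22 to 1.43) in wild type. Dnajc2, which works on the ribosome together with Hspa14, had 26.8 RPKM labelled Neil3-/- and 25.3 RPKM wild type in infarcted tissue, against 17.9 RPKM labelled Neil3-/- and 18.2 RPKM wild type in non-infarcted tissue, and was 1.50-fold higher (1.35 to 1.67) labelled Neil3-/- and 1.39-fold higher (1.25 to 1.55) in wild type. These 2 genes are higher in both infarcted libraries. Dnajc5, the cysteine string protein of secretory vesicles, was at 32.3 RPKM labelled Neil3-/- and 36.3 RPKM wild type in infarcted tissue, against 27.9 RPKM labelled Neil3-/- and 30.4 RPKM wild type in non-infarcted tissue. Dnajc7, which binds Hsp70 and Hsp90, was at 34.1 RPKM labelled Neil3-/- and 35.6 RPKM wild type in infarcted tissue, against 32.3 RPKM labelled Neil3-/- and 35.7 RPKM wild type in non-infarcted tissue. Their small ratios labelled Neil3-/- turned sign with scaling. Dnajc4 had 16.4 RPKM labelled Neil3-/- and 19.8 RPKM wild type in infarcted tissue, against 24.5 RPKM labelled Neil3-/- and 26.2 RPKM wild type in non-infarcted tissue, and was 1.50-fold lower (1.26 to 1.78) labelled Neil3-/- and 1.32-fold lower (1.13 to 1.56) in wild type. Dnajc9, a histone chaperone, was 2.11-fold higher (1.78 to 2.52) labelled Neil3-/- and 1.43-fold higher (1.21 to 1.70) in wild type. The other compared genes of this group lay between -0.29 and 0.50 on the log2 scale in both genotypes, and 6 members (Dnajb13, Dnajb3, Dnajb7, Dnajc22, Dnajc6 and Hspb9) stayed below 1 RPKM in every library and were not compared.

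Heat shock factors and cytosolic cochaperones had no common direction, with 16 labelled Neil3-/- and 20 wild type of 30 genes above 0. Of all compared genes, 66.3% (labelled Neil3-/-) and 67.2% (wild type) lay above 0. The list medians were 0.07 and 0.10, below the all-gene medians of 0.24 and 0.21. They turned to -0.16 and -0.11 under median-ratio scaling. Hsf1, the main heat shock factor, was at 19.7 RPKM labelled Neil3-/- and 20.1 RPKM wild type in infarcted tissue, against 21.9 RPKM labelled Neil3-/- and 18.7 RPKM wild type in non-infarcted tissue. Itgb1bp2, known as melusin, a muscle protein that binds Hsp90, was 3.85-fold lower (3.52 to 4.22) labelled Neil3-/- and 2.82-fold lower (2.61 to 3.05) in wild type. The myosin chaperone Unc45b was 2.20-fold lower (2.07 to 2.34) labelled Neil3-/- and 1.67-fold lower (1.58 to 1.77) in wild type, and the Hsp90 cochaperone Fkbp4 2.11-fold lower (2.0 to 2.23) labelled Neil3-/- and 1.68-fold lower (1.58 to 1.78) in wild type. The kinase cochaperone relative Cdc37l1 was 1.98-fold lower (1.79 to 2.19) labelled Neil3-/- and 1.86-fold lower (1.69 to 2.05) in wild type. The lowest ratios of this list thus include 2 muscle proteins. All 8 listed subunits of the cytosolic chaperonin TRiC lay above 0 in each genotype, also under each other scaling, where 66.3% (labelled Neil3-/-) and 67.2% (wild type) of all compared genes did as deposited, with medians of 0.49 and 0.54. Cct2 was 1.54-fold higher (1.47 to 1.62) labelled Neil3-/- and 1.64-fold higher (1.56 to 1.72) in wild type, and Cct6a 1.59-fold higher (1.51 to 1.67) labelled Neil3-/- and 1.57-fold higher (1.49 to 1.65) in wild type. Cct8 was 1.53-fold higher (1.45 to 1.61) labelled Neil3-/- and 1.44-fold higher (1.36 to 1.51) in wild type, and Cct5 1.41-fold higher (1.34 to 1.49) labelled Neil3-/- and 1.54-fold higher (1.46 to 1.62) in wild type.

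The libraries labelled Neil3-/- and wild type were next compared within each tissue. No member was 2-fold apart in either. In infarcted tissue 0.249% of all compared genes were at least 2-fold higher in the library labelled Neil3-/- and 0.241% lower, and in non-infarcted tissue 0.254% were higher and 0.188% lower. In infarcted tissue the small muscle Hspb genes were lower in the library labelled Neil3-/-, with 5 of 6 below 0 (45.5% of all compared genes) and a median of -0.47, against -0.00482 for the other members and 0.02 for all genes. Hspb2 was 1.88-fold lower (1.72 to 2.06), Hspb7 1.55-fold lower (1.53 to 1.57) and Hspb8 1.42-fold lower (1.37 to 1.47) in the library labelled Neil3-/-. Hspb1 was 1.36-fold lower (1.32 to 1.40) and Hspb6 1.21-fold lower (1.18 to 1.24), while Hspb3 was 1.17-fold higher (0.728 to 1.88), with an interval that holds 1. Cryab, outside the rule, was 1.47-fold lower (1.46 to 1.49). Cardiomyocyte markers were also lower there, 10 of 10 with a median of -0.53, so the small Hspb median lay 0.05 log2 units above theirs. The part of the markers in this difference was not tested.

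Endoplasmic reticulum chaperones differed the other way in infarcted tissue, with 7 of 8 above 0 (54.5% of all compared genes) and a median of 0.23, a count that held under all 3 other scalings. Hsp90b1 was 1.34-fold higher (1.31 to 1.37) in the library labelled Neil3-/-, Hspa13 1.28-fold higher (1.17 to 1.41), Dnajc10 1.25-fold higher (1.18 to 1.33) and Dnajc3 1.21-fold higher (1.15 to 1.28). Hspa5 was 1.10-fold higher (1.08 to 1.12), and Dnajb9 was the gene below 0. Fibroblast and macrophage markers were higher in the same library, 7 of 7 of each list, with medians of 0.61 and 0.37. Their part in the difference was not tested. Cytosolic Hsp70 genes had 5 of 6 below 0 (45.5% of all compared genes), with a median of -0.18. Of these, Hspa1a, Hspa1b, Hspa1l and Hspa2 were scarce, and the abundant Hspa8 lay at -0.08. The mitochondrial class had a median of -0.09.

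In non-infarcted tissue the differences were smaller. The small muscle Hspb median was -0.09, with 5 of 6 genes below 0 (46.3% of all compared genes), and the endoplasmic reticulum median was -0.05, with 2 of 8 above 0 (53.7% of all compared genes). Hspb6 was 1.14-fold higher (1.12 to 1.16) in the library labelled Neil3-/-, and Hspb2 1.16-fold lower (1.05 to 1.27). On the log2(RPKM + 1) scale the largest ratios were 0.58 for Hspb11, an intraflagellar transport protein despite its symbol, and -0.36 for Dnajc17. As RPKM ratios, Hspb11 was 1.56-fold higher (1.10 to 2.23) from 84 and 56 reads, and Dnajc17 1.35-fold lower (0.974 to 1.87). These were named after their values were seen.

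**Figure D4:**
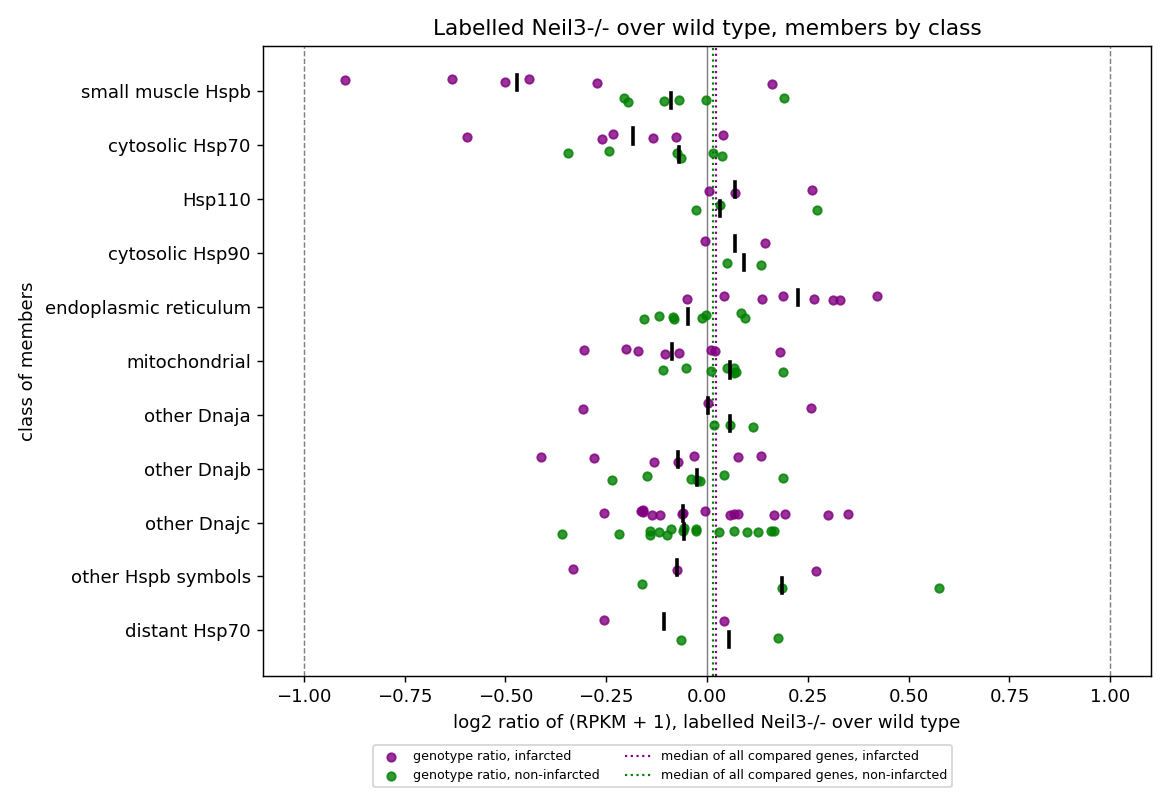
Log2 ratio of (RPKM + 1), labelled Neil3-/- over wild type (x axis), for every compared member, by class (y axis), in infarcted tissue (purple) and non-infarcted tissue (green). Each point is 1 gene, black bars are class medians, dotted lines the medians of all compared genes and dashed lines 2-fold. Small muscle Hspb genes lie left and endoplasmic reticulum genes right of 0 mainly in infarcted tissue, with medians of -0.47 and 0.23.

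The infarct ratios of both genotypes, which share no library, had the same sign for 58 of 65 members, or 89.2%, where 89.4% of all genes compared in both did. Across members, which are not independent replicates, Pearson's r was 0.909 and Spearman's rho 0.916. The infarct ratio labelled Neil3-/- minus that of wild type was below 0 for 5 of 6 small muscle Hspb genes, with a median of -0.45, and above 0 for 7 of 8 endoplasmic reticulum genes, with a median of 0.24. Among all 12362 genes compared in both, 50.5% lay below 0 and 49.5% above it, with a median of -0.00279. By construction, these differences equal the genotype log2 ratio in infarcted tissue minus that in non-infarcted tissue. They restate the genotype ratios of the same 4 libraries, are no separate result and have no replicate check.

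Genes of the whole table were ranked by how close their 4 mean-centred log2 values came to the mean profile of the small muscle Hspb genes, among the 4314 genes that reached 20 RPKM in any library, the 6 genes themselves left out. The 5 closest were Tbrg4, Zbtb20, Klhl30, Cdh2 and Tenc1, at root mean square distances of 0.0121 to 0.0301 log2 units over the 4 libraries. Cdh2, the cadherin of cardiomyocyte junctions, was at 83.4 RPKM labelled Neil3-/- and 114 RPKM wild type in infarcted tissue, against 129 RPKM labelled Neil3-/- and 137 RPKM wild type in non-infarcted tissue. It was lowest in the infarcted library labelled Neil3-/- and highest in wild-type non-infarcted tissue. That order is shared with the mean Hspb profile because the ranking selects for it, and is no separate result. Tbrg4, Zbtb20 and Klhl30 lay closer than Cdh2, and the mean profile averages genes with opposite ratios, such as Hspb1 and Hspb3.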

How the data were processed

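Total RNA of 4 left ventricle samples was sequenced on an Illumina instrument, 1 library per group. Per the file headers, the authors deposited counts of uniquely assigned reads for each gene, the share of the gene length covered in percent, and RPKM, which scale the reads to the listed gene length and to the library's unique reads. The RPKM values were checked against reads, length and library total, with a largest relative error of 3.64e-14. Per the submitters' processing notes the build was mm9. The aligner, counter, annotation and any use of strand are stated nowhere among the labels, headers and notes (not given in the sources used here). The headers give totals of 14.3 to 18.2 M (mega) reads, and a gene with no read is not listed.

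Genes were compared on log2(RPKM + 1), a scale that understates the change of low genes, where at least 1 of both libraries reached 1 RPKM. Ratios of RPKM carry exact 95% Clopper-Pearson intervals of the read share, which cover counting error only, as the labels name no molecular identifiers. With 1 library per group no test was run, and the spread between mice is unknown. Alternatives were a pseudocount of 0.1 RPKM, no filter beyond 1 read, a filter at 5 RPKM, median-ratio scaling, TMM scaling with edgeR 4.0.16 in R 4.3.3, and a total without the 50 genes of the highest reads. The other steps ran in Python 3.11.15 with numpy 2.4.6, pandas 2.3.3, scipy 1.17.1 and matplotlib 3.10.9. Only the log2 ratios and intervals were tested on simulated data, for the wild-type infarct comparison. The simulated reads held counting error alone, as the intervals assume, so the spread between mice was not covered.

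Members that reached 20 RPKM in any library, or past 2-fold in any comparison, are named, with at most 4 others for a stated role, and up to 4 genes for each of 4 pathway lists by the mean infarct log2 ratio. Outside this rule, Dnajb14, Dnajc1, Dnajc9, Dnajc16, Dnajc17, Dnajc18, Dnajc25, Hspa4l, Hspa12a and Hspb11 were named after their values were seen. Members, classes and lists were chosen with earlier results of these data known. Of 68 pathway genes, 67 were found. RefSeq promoter windows were matched by gene ID, and sequences of 13 members are not shown or searched because none was matched.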

Additional observations from a re-analysis of the deposited data

Results flagged for a closer look

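Hspb2, a small heat shock protein of muscle, was singled out because its infarct ratio lay below 0 in the libraries labelled Neil3-/- and above 0 in wild type. It was 1.38-fold lower (1.25 to 1.52) labelled Neil3-/- and 1.18-fold higher (1.09 to 1.28) in wild type, and the log2 ratio labelled Neil3-/- minus that of wild type was -0.69. The wild-type log2 ratio was 0.24 as deposited, close to the all-gene median of 0.21, and 0.0066 and 0.015 under median-ratio and TMM scaling. As an RPKM ratio of ratios this is 0.614, with an approximate 95% interval of 0.54 to 0.70 that covers counting error only. Its level was 44.9 RPKM labelled Neil3-/- and 84.4 RPKM wild type in infarcted tissue, against 61.8 RPKM labelled Neil3-/- and 71.5 RPKM wild type in non-infarcted tissue. With 1 library per group the difference was not tested, and genotype, mouse and dissection of the piece cannot be told apart.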

How the results depend on the processing

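No paired analysis was possible because each group is 1 library and the labels carry no replicate numbers, and for the same reason no replicate could be left out. Scaling mattered most. Under median-ratio and TMM scaling, no member (0 and 0) was 2-fold higher in infarcted tissue labelled Neil3-/-, against 1 as deposited, and 10 and 10 were 2-fold lower, against 4, while in wild type 4 and 4 were lower, against 2. Over all genes these scalings gave 517 and 549 higher and 1100 and 1060 lower labelled Neil3-/-, and 781 and 769 lower in wild type. A total without the 50 genes of the highest reads gave 0 higher and 7 lower labelled Neil3-/-. Of 12844 compared genes, 922 were higher and 891 lower under that total. A pseudocount of 0.1 RPKM gave 3 higher labelled Neil3-/- and 2 higher in wild type. Over all compared genes that pseudocount gave 1578 of 12563 and 1262 of 12515 higher. The small muscle Hspb infarct median moved to -1.13 and -1.11 labelled Neil3-/- and to -0.63 and -0.62 in wild type under median-ratio and TMM scaling, and to -0.48 in wild type without the 50 genes. The median of the other members turned to -0.0999 and -0.077 labelled Neil3-/- and to -0.14 and -0.13 in wild type under the same scalings. In infarcted tissue, labelled Neil3-/- over wild type, that median turned from -0.00482 to 0.00175 with no filter beyond 1 read and 0.00175 at 5 RPKM or more. The all-gene median moved with scaling as well, by -0.23 and -0.21 labelled Neil3-/- and by -0.20 and -0.20 in wild type, by construction of those scalings. Of 640 values of the 40 named members under the pseudocount and scaling alternatives, 454 stayed within their counting interval and 186 moved. The filter alternatives are not in this tally. No named member past 2-fold changed sign, but the scalings shift ratios too little to turn these, so this is no check. Smaller ratios of named members did turn sign, among them those of Hsp90ab1, Hspe1, Hspa4 and Dnajb6. Depth limits scarce members such as Hspb3, with 35 to 96 reads, and Hspa1a, with 39 to 122.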
